A study of Homo sapiens with 2 samples.

Results

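The laminin and integrin genes described here were chosen by name alone, as every gene of the deposited gene tables that codes for a laminin chain or for an integrin subunit. The rule found 38 genes of 62704, and each had at least 1 transcript in both libraries. They are 12 laminins, with alpha, beta and gamma chains, and 26 integrins, of which 18 are alpha and 8 are beta subunits. Their levels were read in 2 split-seq libraries. In that assay fixed cells or nuclei pass through successive plates, each well adds its own barcode to the RNA inside, and the combination of barcodes stands for the cell or nucleus.

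Both libraries came from cerebral organoids of the H9 human embryonic stem cell line, a single line, grown with a commercial kit that embeds them in Matrigel, a matrix rich in laminin of its own. The cell library pooled control organoids (CO) of days 45, 55 and 70. It also held organoids dissociated at day 45 and reaggregated (DISS), of days 48, 55 and 70. The last group was constrained organoids (CONS) of day 55, which were taken out of Matrigel at day 13 and placed in 3% agarose. By the paper's methods, the later medium of CO, DISS and CONS also held dissolved Matrigel. The nuclear library held nuclei of day 45 CO, taken from whole organoids and from a cell suspension, as the methods describe it, although the treatment label of that library also lists dissociation and an embedding. All barcodes of a library carried 1 sample name, so conditions, days and organoids could not be told apart, each library was 1 sample, and no test and no p-value is given.

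Laminins are secreted as trimers of an alpha, a beta and a gamma chain that polymerize into basement membranes. Integrins are dimers of an alpha and a beta subunit in the cell membrane, which bind laminins and other matrix proteins and connect them to the actin cytoskeleton through talin, kindlin and focal adhesion kinase. In the developing brain a basement membrane lines the pial surface, where the basal endfeet of radial glia (RG) attach. The epithelium of the choroid plexus also rests on a basement membrane.

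After filtering, 20178 cells with a median of 2615 transcripts and 14228 nuclei with a median of 3890 transcripts were kept. The 38 genes together made up 0.104% of the transcripts of cells and 0.110% of those of nuclei. Clusters were built without these genes and named by fixed markers, as RG-like, dividing-like, choroid plexus-like and glycolytic-like in both libraries, excitatory neuron-like in both, intermediate progenitor-like in cells, and cortical hem-like and Cajal-Retzius-like in nuclei. Clusters without a clear name held 45.4% of cells and 19.0% of nuclei. In the cell library, 407 barcodes of over 50000 transcripts held 28.5% of all transcripts. The libraries shared 99 barcode names.

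A level is given here as transcripts of the gene per 10000 transcripts, summed over the barcodes of a type, with an exact 95% Poisson interval that covers counting error only. A fold is the level in a type over the level in all other kept barcodes of that library, and a gene was called at 2-fold or more if it had at least 50 counts, which held for 38 genes in cells and 31 in nuclei. Ranges over first-round wells describe groups of barcodes of unknown condition. Barcodes of 10 to 100 transcripts served as a measure of free RNA.

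Before the values, the sequence before the start of 5 of the genes is shown, because these genes stand for the patterns below. Of the named types, LAMB1, LAMA2 and ITGB5 had their highest levels in choroid plexus-like or cortical hem-like barcodes, ITGA2 in RG-like or dividing-like barcodes, and LAMC1, in cells, in the intermediate progenitor-like type. The windows are those of RefSeq on GRCh38.p14, up to 250 bases before the start and cut where a longer transcript of GENCODE 44 begins. They lie at chr7:108003214-108003411 on the minus strand, chr6:128882888-128883137 on the plus strand, chr3:124901419-124901668 on the minus strand, chr5:52989102-52989339 on the plus strand and chr1:183023170-183023419 on the plus strand. They are written from 5′ to 3′ on the strand of the gene, with GC boxes (GGGCGG on either strand) in capitals.
LAMB1: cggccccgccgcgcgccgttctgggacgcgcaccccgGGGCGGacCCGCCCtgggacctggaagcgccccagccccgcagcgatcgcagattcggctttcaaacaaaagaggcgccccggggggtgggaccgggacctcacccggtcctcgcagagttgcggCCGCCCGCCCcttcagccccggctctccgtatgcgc
LAMA2: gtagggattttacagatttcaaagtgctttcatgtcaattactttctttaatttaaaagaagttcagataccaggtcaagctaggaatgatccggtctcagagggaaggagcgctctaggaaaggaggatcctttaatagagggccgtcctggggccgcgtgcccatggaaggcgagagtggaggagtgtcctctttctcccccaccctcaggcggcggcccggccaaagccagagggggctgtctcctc
ITGB5: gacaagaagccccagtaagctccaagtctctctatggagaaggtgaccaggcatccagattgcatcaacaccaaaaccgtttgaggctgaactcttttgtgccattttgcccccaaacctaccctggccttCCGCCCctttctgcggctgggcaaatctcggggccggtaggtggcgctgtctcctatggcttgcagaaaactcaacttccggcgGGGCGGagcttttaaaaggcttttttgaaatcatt
ITGA2: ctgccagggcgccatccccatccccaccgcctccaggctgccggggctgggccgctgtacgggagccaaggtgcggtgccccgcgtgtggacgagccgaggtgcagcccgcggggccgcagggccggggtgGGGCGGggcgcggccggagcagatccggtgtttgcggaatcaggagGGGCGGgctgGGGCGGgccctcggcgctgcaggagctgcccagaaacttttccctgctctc
LAMC1: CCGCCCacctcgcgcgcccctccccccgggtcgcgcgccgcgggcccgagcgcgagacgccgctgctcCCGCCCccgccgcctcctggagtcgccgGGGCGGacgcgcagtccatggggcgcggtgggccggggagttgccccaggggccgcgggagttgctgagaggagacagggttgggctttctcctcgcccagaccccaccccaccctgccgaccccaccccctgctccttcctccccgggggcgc
The windows of LAMB1, LAMC1 and ITGA2 were rich in G and C (70.4%, 79.6% and 76.4% over 250 bases), with 4, 3 and 3 GC boxes in the part shown, and 2 of the boxes of LAMB1 overlap. ITGB5 had 52.8% GC and 2 GC boxes, and LAMA2 53.2% GC and no GC box. A link between these letters and the levels was not tested. RefSeq windows were found for 26 of the 38 genes. A GC box was present in 50% of them and in 42.3% of 27303 windows of all genes. The letters TAATCC, which OTX proteins bind, were present in 3.85% against 5.67% of all windows, ACAAAG of SOX proteins in 0% against 13.7%, and CAGATG, an E-box, in 7.69% against 12.2%, and none of these 3 was in a window shown. The CCAAT box was found in 15.4% against 33% and TATAAA in 3.85% against 11.1%. All motifs were searched on both strands and describe these letters only.

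Per kilobase of exon, the same 6 genes were highest in both libraries. The scale for this order is CPM, the transcripts scaled to the same library total, divided by the kilobases of merged exons of GENCODE 44. Levels are compared between genes on this scale only, apart from ranks per kilobase of gene span. ITGB8, the beta subunit that pairs with the alpha V subunit and releases active TGF-beta from its latent form, was first with 13.3 in cells and 16.9 in nuclei. LAMC1, the gamma chain of most laminin trimers, was second with 10.4 and 9.79. ITGA2 (7.52 and 6.39), ITGB1 (6.68 and 5.79), LAMB1 (5.96 and 7.01) and ITGA6 (5.88 and 7.64) followed in an order that differed between the libraries. The order depended on the length used. Per kilobase of gene span, ITGB8 and LAMB1 ranked 1 and 2 in both libraries and LAMC1 ranked 9 in both. On that scale ITGA2 ranked 10 in cells and 11 in nuclei, and ITGA6 11 and 10. Per kilobase of exon, the leukocyte integrin ITGAX was last, with 0.123 in cells and 0.0176 in nuclei, from 137 and 9 transcripts.

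**Figure D1:**
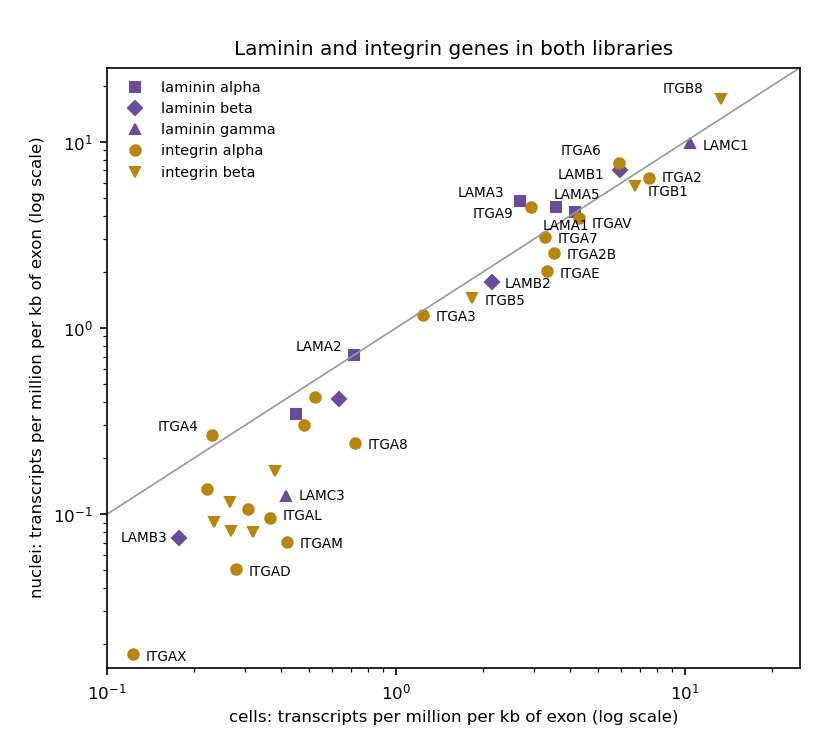
CPM per kilobase of exon of the genes in cells (x axis) and nuclei (y axis), both on log scales, with 1 symbol for each class of chain and a line at equal values. ITGB8 and LAMC1 are highest in both libraries, and most genes that are low in cells, ITGA4 apart, lie under the line.

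Over all kept barcodes, the median ratio of nuclei to cells was 0.823 over the 31 genes tested and 0.824 over 20146 genes. In nuclei, 7 of the 31 (among them ITGA8, ITGA11, ITGAL, ITGB3, ITGB7 and LAMC3, with 55 to 127 transcripts each in nuclei) were lower by 2-fold or more, where 15.7% of all genes were. No gene of the 31 was higher by 2-fold or more, where 0.581% of all genes were, and the highest ratios over all kept barcodes were 1.80 for LAMA3 and 1.51 for ITGA9. Within single types, members lower by 2-fold or more in nuclei numbered 10 of 31 in choroid plexus-like barcodes, against 29.2% of all genes, 11 in dividing-like (22.0%), 11 in excitatory neuron-like (25.8%), 10 in glycolytic-like (21.1%) and 8 in RG-like ones (16.1%). In the other direction, 1 of 31 was higher by 2-fold or more in excitatory neuron-like nuclei than in such cells (ITGA9, at 2.74 times the level), against 1.47% of all genes, and 2 of 31 in glycolytic-like ones (ITGA4 and ITGA5, on 9 and 6 transcripts in nuclei), against 3.36%. None was so within the choroid plexus-like, dividing-like and RG-like types. The libraries also differed in days and conditions, so a nuclear RNA and an earlier day cannot be told apart.

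By type, laminins varied more than integrins. The 12 laminins summed to 12.0 transcripts per 10000 in choroid plexus-like cells and 14.8 in choroid plexus-like nuclei, and to 11.1 in cortical hem-like nuclei. In the other named types they summed to between 1.95 and 3.63 in cells and between 1.62 and 4.10 in nuclei. LAMB1 alone made up 7.24, 10.0 and 6.62 of the first 3 sums. Without it, the other laminins summed to 4.79, 4.74 and 4.52 there, against at most 3.44 in the other named types of cells and 4.04 in those of nuclei. The 26 integrins summed to between 5.51 and 7.02 in the named types of cells and between 3.98 and 7.29 in those of nuclei.

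**Figure D2:**
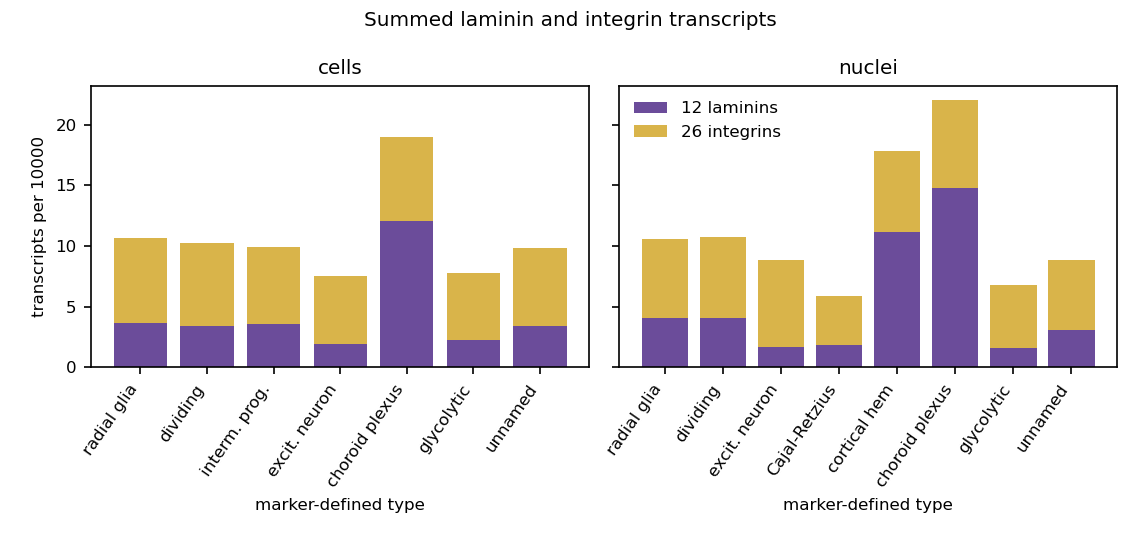
Summed transcripts per 10000 (y axis, from 0) of the 12 laminins and the 26 integrins in each marker-defined type, for cells and nuclei. The laminin part is highest in choroid plexus-like and cortical hem-like barcodes, with 12.0, 14.8 and 11.1, of which LAMB1 made up 7.24, 10.0 and 6.62, while the integrin part varies less.

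In choroid plexus-like cells, 9 of the 38 genes (ITGA3, ITGA5, ITGA7, ITGB5, LAMA2, LAMA4, LAMA5, LAMB1 and LAMB2) were at 2-fold or more, where 9.6% of all 28471 genes tested were. In choroid plexus-like nuclei, 7 of 31 were (ITGA7, ITGB5, LAMA2, LAMA5, LAMB1, LAMB2 and LAMC3), against 12.3% of 20150. In cortical hem-like nuclei, 12 of 31 were, against 7.09%, and these were ITGA1, ITGA3, ITGA5, ITGA7, ITGA11, ITGB3, ITGB5, LAMA2, LAMA4, LAMA5, LAMB1 and LAMB2. The median fold of the members was 1.05, 1.07 and 1.40 in these types, and that of all genes 0.895, 0.806 and 0.977. The 6 genes called in each of these 3 types were ITGB5, LAMA2, LAMA5, LAMB1, LAMB2 and ITGA7. The choroid plexus-like and cortical hem-like types are not clearly distinct, since they shared markers, as given below.

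**Figure D3:**
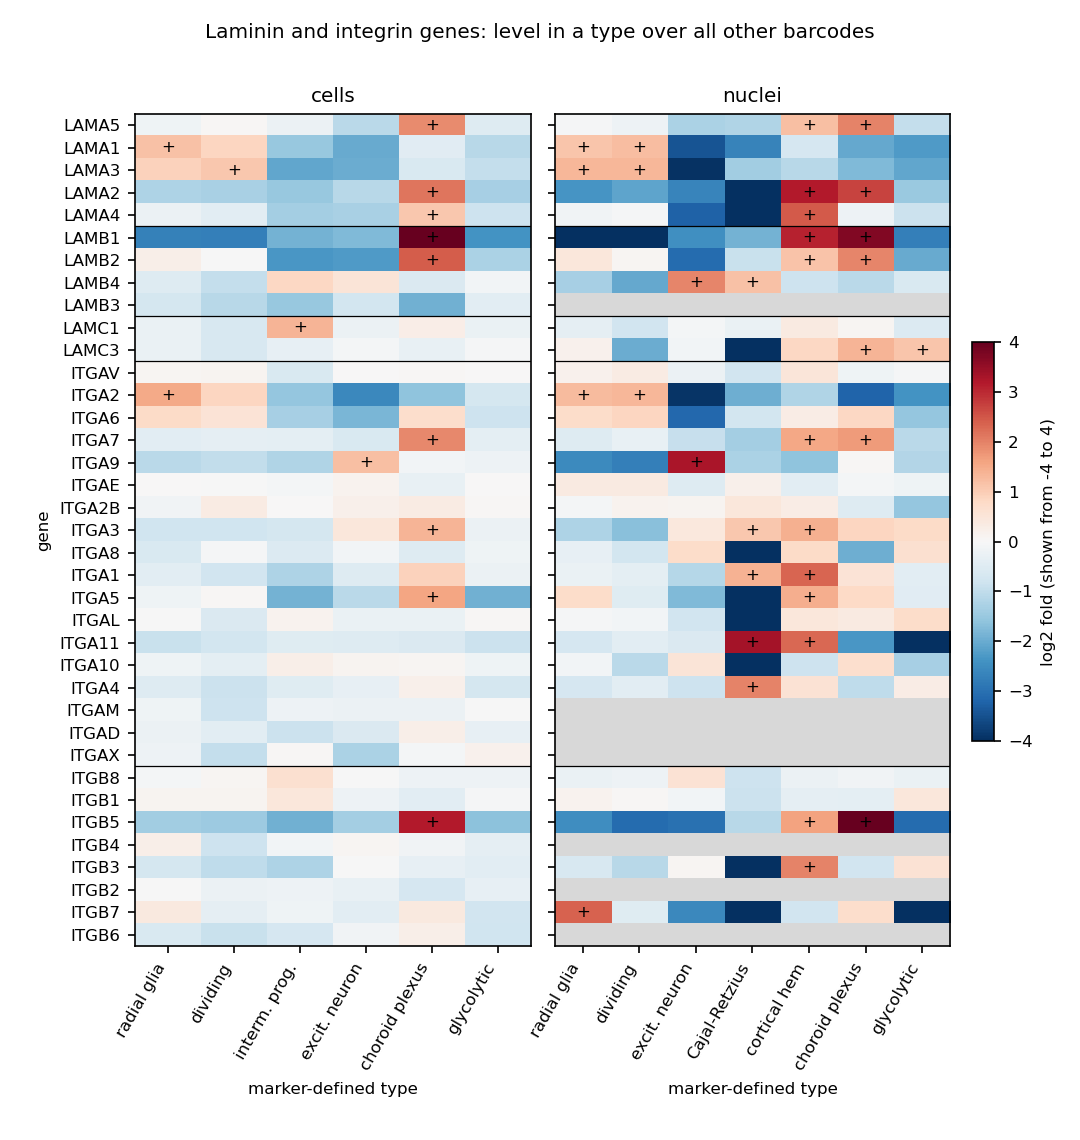
Log2 fold of the genes in a type over all other barcodes (colour), for the named types of cells and nuclei, with 2-fold or more marked by a plus and genes under 50 counts in grey. The plus signs gather in the choroid plexus-like and cortical hem-like columns, and those of Cajal-Retzius-like nuclei rest on 11 transcripts or fewer each.

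LAMB1 (ENSG00000091136, chr7:107923799-108003213, minus strand), a beta chain of the laminins of early basement membranes, was highest in the choroid plexus-like type of both libraries and next in cortical hem-like nuclei. Its level was 7.24 (7.11 to 7.37) in choroid plexus-like cells, with an SD of 0.772 over 8 sub-libraries and a range of 3.48 to 9.93 over 13 wells. In all other cells it was 0.373, a 19.4-fold difference, and 0.183 in dividing-like and 0.191 in RG-like cells. In nuclei it was 10.0 (9.72 to 10.3) in the choroid plexus-like type, 13.1-fold the 0.767 of all other nuclei, and 6.62 (6.42 to 6.82) in the cortical hem-like type, with 8.62 to 12 over 7 wells and 4.56 to 14.6 over 12 wells. The range over wells of the cortical hem-like type thus enclosed that of the choroid plexus-like type, and their order was not tested. No other named type of nuclei exceeded 0.352. The wells of these types thus did not overlap in LAMB1 with those of the other named types, which reached 0.615 in cells and 0.419 in nuclei. Choroid plexus-like cells, 6.80% of the cells with 10.7% of all transcripts, held 70.0% of all LAMB1 transcripts. Choroid plexus-like and cortical hem-like nuclei, with 5.80% and 8.93% of all nuclear transcripts, held 44.6% and 45.4% of those of LAMB1.

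The free RNA of both libraries held LAMB1 at 1.21 and 1.26 transcripts per 10000, above its level in every named type but these. Of barcodes thinned to 1000 transcripts, 46.9% of choroid plexus-like cells had a LAMB1 transcript, against 1.58% of dividing-like cells. In nuclei the shares were 57.1% in the choroid plexus-like, 41.4% in the cortical hem-like and 0.628% in the dividing-like type. Without thinning the 5 shares were 83.7%, 6.82%, 94.9%, 69.1% and 2.24%, at median depths of 5933.5 and 1982 transcripts in cells and 9527.5, 4779.5 and 4831.5 in nuclei. DLD overlaps LAMB1 by 7.93 kb on the other strand, and its own fold in choroid plexus-like barcodes was 1.00 in cells and 0.937 in nuclei. The fold of LAMB1 in choroid plexus-like barcodes depended on the clustering. At Leiden resolutions of 0.5 and 2 in place of 1, it was 18.4 and 8.51 in place of 19.4 in cells, and 51.7 and 28.2 in place of 13.1 in nuclei.

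LAMA2 (ENSG00000196569, chr6:128883138-129516566, plus strand), the alpha chain whose loss causes a congenital muscular dystrophy, was also highest in these types among the named ones. It was 0.605 (0.568 to 0.643) in choroid plexus-like cells and 0.138 in other cells. In nuclei it was 0.932 (0.842 to 1.03) in the choroid plexus-like type, 0.995 (0.919 to 1.07) in the cortical hem-like type and at most 0.0692 in the other named types. These first 2 intervals, of counting error only, overlap, and the order of hem and choroid plexus in LAMA2 was not tested. The highest cluster for LAMA2 in cells was cluster 17, with 1.22 (1.09 to 1.36), and 63.5% of that cluster came from 1 well. It carried 6 choroid plexus markers (TTR, HTR2C, CLIC6, SLC4A5, OTX2 and TRPM3) and 4 cortical hem markers (RSPO2, RSPO3, WNT2B and LMX1A), and was left unnamed because its leading genes were PAX3, BMP3 and ATP6V1C2. The PAX3-led cluster 18 of nuclei, also unnamed, had 0.749 (0.569 to 0.968).

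LAMA5 and LAMB2, chains of the laminins of mature basement membranes, were also high there, but not in every choroid plexus-like cluster. LAMA5 was 1.71 (1.64 to 1.77) in choroid plexus-like cells against 0.458 in other cells, 2.03 (1.90 to 2.18) in such nuclei against 0.514, and 1.23 (1.15 to 1.32) in cortical hem-like nuclei. LAMB2 was 0.543 (0.508 to 0.579) and 0.406 (0.348 to 0.472) in choroid plexus-like cells and nuclei, against 0.100 and 0.104 elsewhere. The smaller choroid plexus-like cluster of cells, cluster 21, came to 93.1% from 1 well and had LAMB1 at 6.31 (5.89 to 6.75), yet LAMA5 at 0.370 (0.273 to 0.489) and LAMB2 at 0.0679 (0.0310 to 0.129). In the larger cluster 10 these 3 were 7.32, 1.82 and 0.583. LAMB2 values are uncertain, since its pseudogene LAMB2P1 had 2072 and 590 transcripts against 2323 and 877 of LAMB2, although LAMB2P1 was at 0.721-fold and 0.366-fold in choroid plexus-like cells and nuclei.

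Among receptors, ITGB5 (ENSG00000082781, chr3:124761948-124901418, minus strand), a partner of the alpha V subunit that binds vitronectin, was highest in the choroid plexus-like type of both libraries. It was 0.581 (0.545 to 0.618) in choroid plexus-like cells against 0.0639 in other cells, 9.09-fold, and 0.942 (0.851 to 1.04) in such nuclei against 0.0416, 22.6-fold. Cortical hem-like nuclei, at 0.241 (0.204 to 0.281), lay under the choroid plexus-like nuclei, and the intervals, of counting error only, did not overlap. The lowest well of choroid plexus-like cells had 0.326 and the highest well of any other named type 0.262. ITGA7, the alpha subunit of a laminin receptor of muscle, was 0.875 (0.831 to 0.921) and 0.801 (0.717 to 0.891) in choroid plexus-like cells and nuclei and 0.695 (0.632 to 0.763) in cortical hem-like nuclei. In the other named types it was between 0.202 and 0.238 in cells.

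The other calls in these types were of 7 further genes. In choroid plexus-like cells, ITGA3, ITGA5 and LAMA4 were 0.264, 0.0955 and 0.102, and in cortical hem-like nuclei the same genes were 0.270, 0.0745 and 0.161. In choroid plexus-like nuclei they were 0.201, 0.0526 and 0.0359 and were not called. There LAMA4 lay under its level of 0.0412 over all kept nuclei. ITGA1, ITGA11 and ITGB3 in cortical hem-like nuclei rested on 60, 27 and 16 transcripts, and LAMC3 in choroid plexus-like nuclei on 11.

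Markers of fibroblasts and mural cells were higher in sum in these types, but only in cortical hem-like nuclei were all of them higher. The 6 listed markers (COL1A1, COL1A2, COL3A1, DCN, LUM and PDGFRB) summed to 1.32 in choroid plexus-like cells against 0.201 in other cells. There 4 of 6 were at 2-fold or more, while COL3A1 was at 0.549-fold and LUM, on 1 transcript, at 0.287-fold. In choroid plexus-like nuclei the 6 summed to 1.03 against 0.251, with 2 of 6 at 2-fold or more. COL1A1 was at 0.623-fold in those nuclei, and COL3A1, DCN and LUM were at 0. In cortical hem-like nuclei the 6 summed to 1.55 against 0.173, with 6 of 6 at 2-fold or more, of which LUM rested on 1 transcript. PDGFRB made up 0.835, 0.913 and 0.734 of these sums. Of 5 endothelial markers, CLDN5 alone was at 2-fold or more in choroid plexus-like cells and nuclei, and CDH5 was at 0 in those nuclei. In cortical hem-like nuclei 2 of the 5, CLDN5 and CDH5, were at 2-fold or more, on 11 and 3 transcripts. The 5 summed to 0.481 against 0.172 in choroid plexus-like cells, 0.0622 against 0.0350 in such nuclei and 0.0528 against 0.0350 in cortical hem-like nuclei. All 4 markers of pigment epithelium were at 2-fold or more in each of these types, with sums of 2.89 against 0.442 in choroid plexus-like cells, 5.69 against 0.732 in choroid plexus-like nuclei and 2.71 against 0.853 in cortical hem-like nuclei. The 4 markers of the oligodendrocyte lineage summed to 0.994 against 0.0763, 1.22 against 0.0872 and 0.607 against 0.108 in the same types, of which PDGFRA, which mesenchymal cells also express, made up 0.977, 1.21 and 0.594, with OLIG1 and OLIG2 at 1 and 0 transcripts in the cells and at 0 in both types of nuclei. The 6 immune markers summed to 0.212 against 0.0559, 0.280 against 0.0272 and 0.0884 against 0.0373, with 3, 2 and 1 of 6 at 2-fold or more and AIF1, CX3CR1, C1QA and C1QB at 0 in both types of nuclei. The 6 markers of non-neural epithelium summed to 0.448 against 0.207, 0.129 against 0.0881 and 0.151 against 0.0846, with 3, 3 and 2 of 6 at 2-fold or more and KRT5 at 0 in the cortical hem-like nuclei.

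The choroid plexus-like and cortical hem-like types also shared markers with each other. Choroid plexus markers summed to 191, 369 and 153 in the same 3 types, so that the cortical hem-like nuclei carried them too. In those nuclei 8 of 9 choroid plexus markers and 7 of 9 cortical hem markers were at 2-fold or more. At the limits for naming, they passed 3 of 9 cortical hem markers, with RSPO2 and LMX1A among their leading genes. They also passed the choroid plexus markers TTR, HTR2C, CLIC6, SLC4A5, OTX2 and TRPM3. Calls shared by these types may thus not stand for separate cell types. Of 9 cortical hem markers, 6 were at 2-fold or more in choroid plexus-like cells, with a sum of 10.7 against 1.44 in other cells, and no cortical hem-like type was named in cells. The part of these other cell types in the laminin and integrin levels was not tested.

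LAMA1 (ENSG00000101680, chr18:6941742-7117797, minus strand), the alpha chain of the first laminin of the embryo, was highest in RG-like and dividing-like barcodes. It was 1.10 (1.06 to 1.15) in RG-like and 0.959 (0.910 to 1.01) in dividing-like cells, and 1.20 (1.14 to 1.25) and 1.34 (1.28 to 1.41) in these types of nuclei. It was 0.151 and 0.0764 in excitatory neuron-like cells and nuclei and 0.424 and 0.177 in choroid plexus-like ones. ITGA2 (ENSG00000164171, chr5:52989340-53094779, plus strand), the alpha subunit of a receptor for collagen and laminin, was highest in the same types, with 1.36 (1.31 to 1.42) in RG-like and 0.991 (0.942 to 1.04) in dividing-like cells, 0.916 (0.870 to 0.963) and 1.01 (0.950 to 1.06) in such nuclei, and 0.108 and 0.0405 in excitatory neuron-like cells and nuclei. Wells of RG-like cells ranged widely, from 0.332 to 2.64 in LAMA1 and from 0.0773 to 2.78 in ITGA2, and overlapped with those of other types.

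LAMA3 (ENSG00000053747, chr18:23689453-23956222, plus strand), an alpha chain known from skin, was high in the same types of nuclei, at 1.31 (1.25 to 1.36) in RG-like and 1.40 (1.33 to 1.46) in dividing-like nuclei, where excitatory neuron-like nuclei had 0.0547. In cells it was 0.660 (0.625 to 0.696) and 0.738 (0.695 to 0.783). ITGA6, the alpha subunit of a major laminin receptor of neural stem cells, was under 2-fold in every type, with 0.609 in RG-like, 0.555 in dividing-like and 0.597 in choroid plexus-like cells, but 0.120 in excitatory neuron-like cells. In nuclei the same 4 types had 0.738, 0.817, 0.861 and 0.0697.

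In RG-like barcodes, 2 of 38 genes in cells (ITGA2 and LAMA1) and 4 of 31 in nuclei (ITGA2, ITGB7, LAMA1 and LAMA3) were called, against 1.16% and 4.62% of all genes. In dividing-like barcodes, 1 of 38 (LAMA3) and 3 of 31 (ITGA2, LAMA1 and LAMA3) were, against 2.27% and 4.15%. ITGB7 in RG-like nuclei rested on 33 transcripts. The RG-like calls in cells leaned on cluster 8, led by SV2C, with 1.71 (1.62 to 1.82) for LAMA1 and 2.43 (2.31 to 2.55) for ITGA2, where the other RG-like cluster had 0.808 and 0.855. Cluster 8 carried 7 of 12 RG markers and also 6 markers of dividing cells (MKI67, CENPF, ASPM, NUSAP1, KIF11 and RRM2). At resolutions of 0.5 and 2 both folds dropped below 2 in cells, to 1.49 and 1.42 for LAMA1 and 1.52 and 1.59 for ITGA2. That of LAMA3 in dividing-like cells dropped from 2.10 to 1.39 when every barcode was given the same weight, to 1.48 in thinned barcodes and to 1.54 at a resolution of 0.5.

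**Figure D4:**
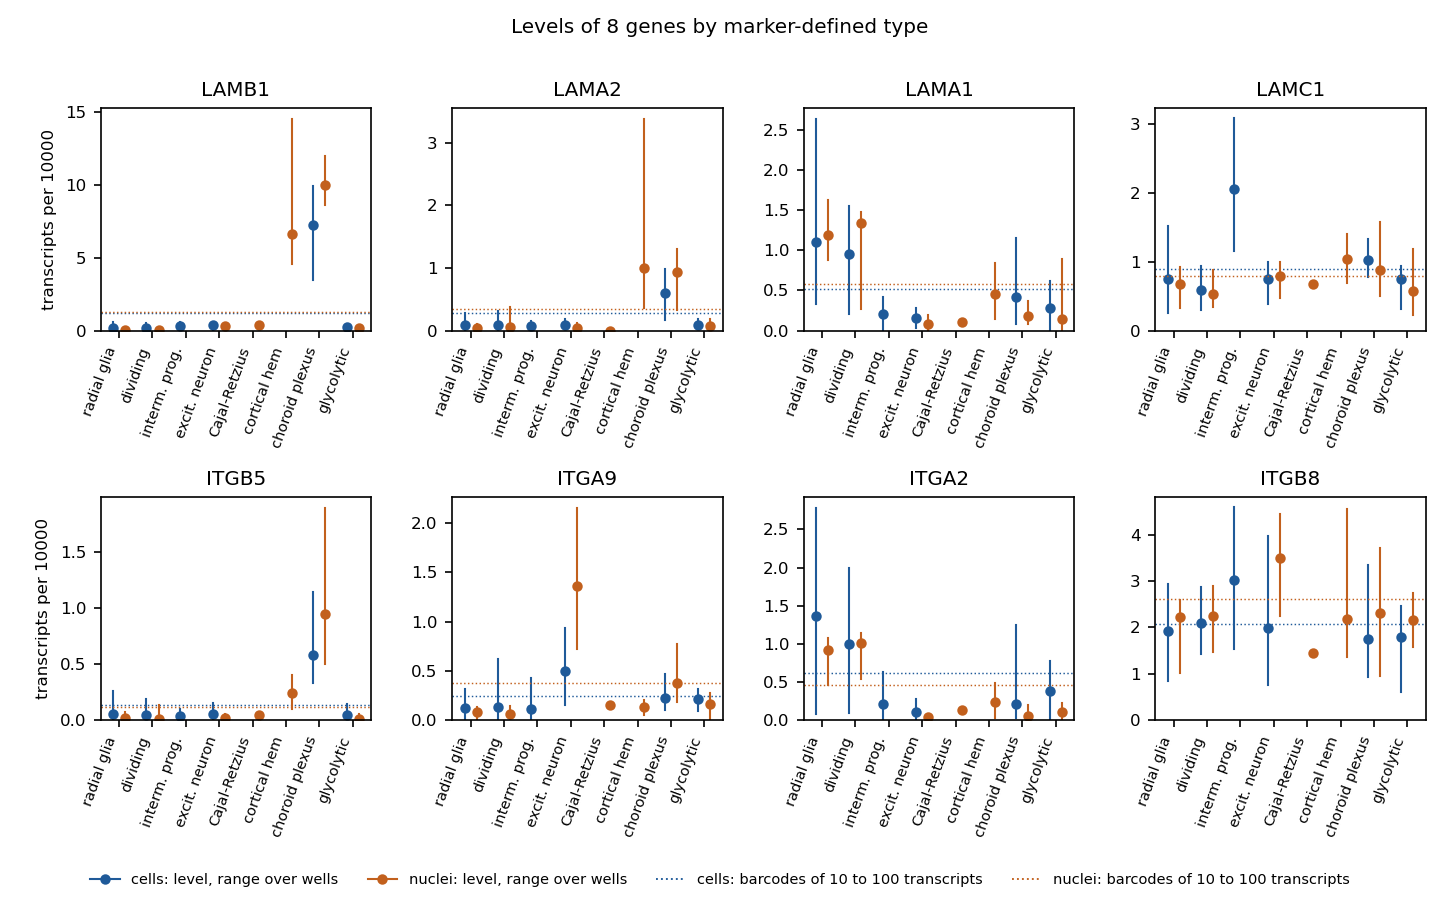
Transcripts per 10000 (y axes, from 0) of 8 genes in each type, with points for the level over all barcodes, bars for the range over wells of at least 20 barcodes of the type, and dotted lines for barcodes of 10 to 100 transcripts. LAMB1, LAMA2 and ITGB5 are high in choroid plexus-like and cortical hem-like barcodes, LAMA1 and ITGA2 in RG-like and dividing-like ones, and ITGA9 in excitatory neuron-like ones.

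ITGA9 (ENSG00000144668, chr3:37452115-37823507, plus strand) was the member called in excitatory neuron-like barcodes of both libraries. It encodes an alpha subunit that binds tenascin C and other ligands. Excitatory neuron-like cells had 0.499 (0.464 to 0.535) against 0.215 in other cells, 2.32-fold, and excitatory neuron-like nuclei had 1.36 (1.30 to 1.43) against 0.141, 9.67-fold. At a resolution of 2 the fold in cells was 1.88. In nuclei the wells ranged from 0.725 to 2.15 and lay apart from most wells of other types, of which the highest had 0.771. The level belonged to 1 of the 2 neuron-like clusters of nuclei. Cluster 10 had 1.98 (1.89 to 2.07) and cluster 11 had 0.192 (0.154 to 0.236), although both carried the same 7 neuronal markers and had BCL11B, a deep-layer factor, at 8.24 and 8.38.

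ITGA9-AS1, an antisense gene that overlaps ITGA9 by 129.9 kb, had 8499 transcripts in cells and 5169 in nuclei, where ITGA9 had 3818 and 2651. The strand used in counting is not given in the sources used here. ITGA9-AS1 was at 0.992-fold in excitatory neuron-like cells and 0.931-fold in such nuclei, and at 0.641 in cluster 10 and 0.742 in cluster 11. In excitatory neuron-like barcodes 1 of 38 genes in cells (ITGA9) and 2 of 31 in nuclei (ITGA9 and LAMB4) were called, against 3.16% and 7.16% of all genes. LAMB4 in these nuclei had 99 transcripts.

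More members were lower than higher by 2-fold or more in most types. All genes leaned the same way, in every named type but the cortical hem-like one (7.03% lower and 7.09% higher). In excitatory neuron-like barcodes 12 of 38 genes in cells and 13 of 31 in nuclei were lower, against 12.1% and 20.8% of all genes, and LAMA1, LAMA2, LAMA3, LAMA4, LAMA5, LAMB1, LAMB2, ITGA2, ITGA5, ITGA6 and ITGB5 were among them in both libraries. The median fold of the members was 0.808 in these cells and 0.588 in these nuclei, and that of all genes 0.913 and 0.821. In intermediate progenitor-like cells 14 of 38 were lower, against 18.5%. In RG-like barcodes 5 of 38 and 7 of 31 were, against 9.76% and 11%, and in dividing-like ones 6 of 38 and 10 of 31, against 14.5% and 15.9%. In glycolytic-like barcodes 6 of 38 and 14 of 31 were lower, against 7.87% and 17.7%, and in Cajal-Retzius-like nuclei 17 of 31, against 28.9%. These 84 nuclei held 0.630% of all nuclear transcripts. A gene with few transcripts can thus be called lower there at 0 counts, as ITGA10 was. The choroid plexus-like type had 2 of 38 lower in cells and 7 of 31 in nuclei, against 11.5% and 23.7%, and the cortical hem-like type 3 of 31, against 7.03%, with ITGA2 in each. LAMB1, LAMA2 and ITGB5 were lower in every other named type of both libraries, where the barcodes compared with include the choroid plexus-like and cortical hem-like ones.

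LAMC1 (ENSG00000135862, chr1:183023420-183145592, plus strand) and ITGB8 (ENSG00000105855, chr7:20330702-20415754, plus strand) were highest in the same named type of cells. Intermediate progenitor-like cells, a cluster led by EBF2, NHLH1 and EOMES that also carried the neuronal markers NEUROD6, NEUROD2, SLC17A7, BCL11B, TBR1 and BHLHE22, had LAMC1 at 2.06 (1.97 to 2.15) against 0.798 in other cells, 2.58-fold, with 1.16 to 3.09 over 19 wells. The other named types of cells had 0.586 to 1.03. ITGB8 was 3.03 (2.92 to 3.14) in the same cells and 1.76 to 2.10 in the other named types, so under 2-fold. LAMC1 was among the 2 of 38 genes called there, against 2.34% of all genes.

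In nuclei no intermediate progenitor-like type was named, but cluster 1 shared leading genes with those cells. This unnamed cluster, with EBF2 and PLXNA4 among its leading genes, had LAMC1 at 2.79 (2.62 to 2.98) and ITGB8 at 4.40 (4.17 to 4.64). Excitatory neuron-like cluster 11 had ITGB8 at 5.73 (5.51 to 5.96) and LAMC1 at 1.20 (1.10 to 1.30), and cluster 10 had ITGB8 at 2.34. Cluster 3, led by EOMES, was lower in both, with LAMC1 at 0.611 (0.512 to 0.723) and ITGB8 at 1.92 (1.74 to 2.12). Cluster 18 of cells, unnamed, had LAMC1 at 1.56 (1.10 to 2.15). Of the neuron-like clusters of nuclei, cluster 10 was higher in ITGA9 and cluster 11 in ITGB8.

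**Figure D5:**
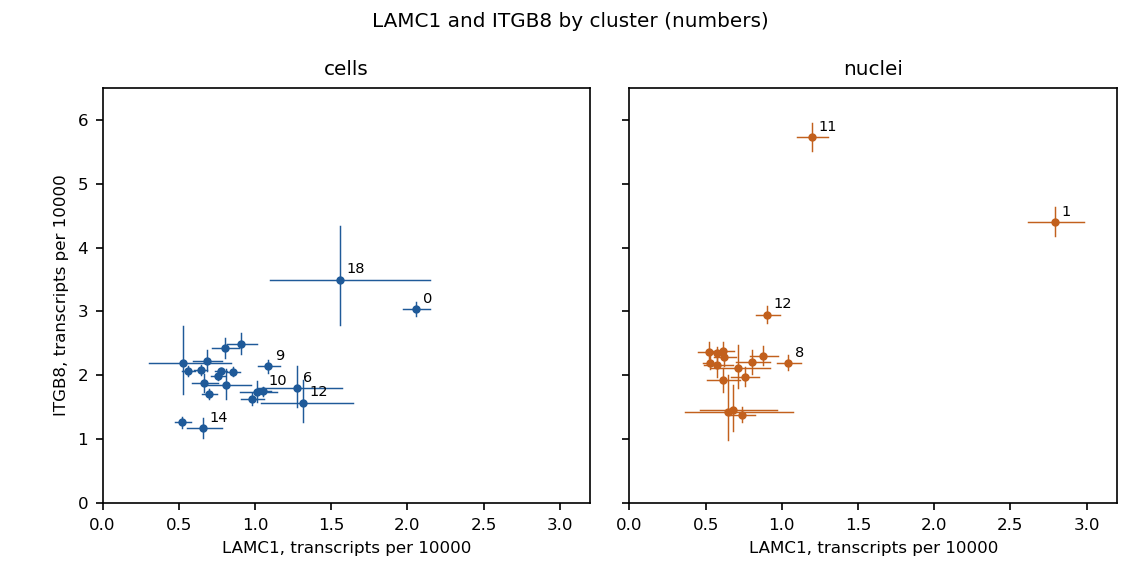
LAMC1 (x axis) and ITGB8 (y axis) in transcripts per 10000 for each cluster of at least 50 barcodes, in cells and nuclei, with 95% Poisson intervals as bars and numbers for those at the margins. Clusters 0 and 18 of cells and 1 and 11 of nuclei are highest in ITGB8, and cluster 0 of cells (2.06) and 1 of nuclei (2.79) in LAMC1.

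ITGAV and ITGB1, the subunits that most other members pair with, were called in no named type. ITGAV was between 0.559 and 0.880 in the named types of cells and between 0.440 and 1.02 in those of nuclei. ITGB1 was between 0.742 and 1.30 and between 0.462 and 1.14. It was 0.645 (0.571 to 0.727) in choroid plexus-like and 1.14 (1.01 to 1.28) in glycolytic-like nuclei, whose intervals, of counting error only, lie apart. In free RNA ITGAV had 0.858 and 0.780, and ITGB1 0.970 and 0.729, near the levels in most types, so a low level in a single type is not distinguishable from free RNA here. The same holds for ITGAE (0.181 to 0.239 in cells) and ITGA2B (0.184 to 0.244).

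In glycolytic-like barcodes, 0 of 38 genes in cells and 1 of 31 in nuclei (LAMC3, on 6 transcripts) were called, against 1.13% and 11% of all genes. The glycolytic-like nuclei were a single cluster, whose leading genes held the heat shock genes DNAJB1, HSPH1, HSP90AA1, CHORDC1 and HSP90AB1 beside PDK1 of the glycolytic list, so the name covers a stress signature as well. Cajal-Retzius-like nuclei, 84 in number, had 6 of 31 (among them ITGA1, ITGA3, ITGA4, ITGA11 and LAMB4) against 11.6% of all genes, each on 11 transcripts or fewer, and the members had a median fold of 0.437 there. Among the integrins of leukocytes, ITGAD, ITGAM, ITGAX and ITGB2 had at most 48 transcripts each in nuclei, and ITGB4, ITGB6 and LAMB3 had at most 39. They were not tested in nuclei. In cells the same 7 genes were called in no named type and had at most 375 transcripts each. ITGA8, ITGA10 and ITGAL, with 469 to 830 transcripts in cells and 68 to 135 in nuclei, were called in no named type of either library. LAMB4, a beta chain, and LAMC3, a gamma chain, had 701 and 585 transcripts in cells and 211 and 81 in nuclei.

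Transcripts of several chains in the same barcode were rare at this depth. After thinning to 1000 transcripts, 1.09% (0.613% to 1.80%, exact binomial interval) of choroid plexus-like cells and 2.02% (0.876% to 3.94%) of choroid plexus-like nuclei had an alpha, a beta and a gamma chain of laminin together. The profile of free RNA alone, at this depth, would give 0.206% in cells and 0.202% in nuclei. Of excitatory neuron-like barcodes, 0 of 1321 cells and 0 of 2539 nuclei had them after thinning, which at that depth allows up to 0.279% and 0.145%, and 9.08% and 1.30% had them without thinning. Any laminin chain was found in 64.4% and 72.5% of choroid plexus-like cells and nuclei and in 17.6% and 16.5% of excitatory neuron-like ones, where free RNA would give 34.4% and 35.1%. An integrin alpha and a beta subunit together were found in 9.11% and 10.6% of choroid plexus-like cells and nuclei, 7.22% and 6.87% of RG-like ones and 5.60% and 7.21% of excitatory neuron-like ones. Free RNA would give 7.83% and 7.55%, so the shares with an integrin pair lay near or under those of free RNA. The interval of choroid plexus-like nuclei (7.75% to 14.1%) lay above that value, but after thinning to 2000 transcripts it (20.3% to 29.1%) held the 22.45% of free RNA.

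Of a list of 46 other genes of basement membrane and adhesion, 43 were tested in cells and 41 in nuclei. In choroid plexus-like barcodes 10 were called in each library (against 9.6% and 12.3% of all genes), in cortical hem-like nuclei 7 (7.09%), in RG-like barcodes 2 in each (1.16% and 4.62%), in intermediate progenitor-like cells 1 (2.34%) and in Cajal-Retzius-like nuclei 1, RELN (11.6%). None was called in the dividing-like, excitatory neuron-like or glycolytic-like types. NID2, a nidogen that bridges laminin and collagen IV networks, was 0.610 in choroid plexus-like cells against 0.0369 in other cells, 16.5-fold, and 0.822 in such nuclei against 0.0353, 23.3-fold. PTK2B, a kinase related to focal adhesion kinase, was 1.07 and 2.24 in choroid plexus-like cells and nuclei (5.26-fold and 8.78-fold). BCAM, a receptor for laminins with the alpha 5 chain, was 0.287 and 0.163 there (3.95-fold and 2.80-fold).

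TNC, the matrix protein tenascin C, was 0.419 in RG-like cells and 0.160 in RG-like nuclei (3.23-fold and 2.82-fold). TNC and RELN were also on the marker lists for outer RG and Cajal-Retzius cells. ADGRG1, a receptor for collagen III whose loss disrupts the pial basement membrane, was at 1.32 and 2.08-fold in intermediate progenitor-like cells, the type in which LAMC1 was highest. HSPG2, TLN2 and PARVA (perlecan, a talin and a parvin) were at 2.40, 2.57 and 2.52-fold in choroid plexus-like cells and at 2.24, 2.54 and 2.86-fold in such nuclei. PTK2, focal adhesion kinase itself, had 5.43 in choroid plexus-like and 6.22 in RG-like cells.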

How the data were processed

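The 2 libraries were sequenced after split-pool barcoding of cells and of nuclei of H9 organoids. The authors deposited raw transcript (UMI) counts per gene and barcode, unfiltered, made by the Parse Biosciences pipeline on GRCh38 with sub-libraries joined (8 of cells, 2 of nuclei). The strand setting of the counting is not given in the sources used here, so genes that overlap on opposite strands may share reads.

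Barcodes with over 500 genes, over 1000 transcripts and at most 20% mitochondrial transcripts were kept. They numbered 20178 of 1303455 and 14228 of 197446, with 157306492 and 72162726 transcripts. Each library was 1 sample, so no test was run. Counts were scaled to 10000 and log-transformed, and 2000 variable genes without the members, 30 components and 15 neighbours gave Leiden clusters at a resolution of 1 (scanpy 1.11.5, igraph 0.11.9, scipy 1.17.1). A cluster took a name if at least 3 of its markers were at 1.5-fold or more and found in 25% of its barcodes, and if these were 40% of the list or a marker was among its 10 leading genes, unless its leading genes or depth went against the name. Scrublet marked 0 barcodes in each library, so doublets were not removed, and an alternative left out the 1009 and 427 highest scores. For shares, barcodes were thinned to 1000 transcripts. Intervals (exact Poisson or binomial, 95%) cover counting error only, and ranges over wells used wells with at least 20 barcodes of the type. Steps were checked on simulated data.

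Described in full were the 3 highest members of each class and each member at 2-fold or more in the same type of both libraries with at least 30 counts, with up to 3 genes per type of the list of 46, and others are given by counts and ranges. Genes named outside this rule, such as those of single clusters, were chosen after their values were seen. The members, lists and markers were chosen with earlier results of these data known, and the rule for cluster names was set after the clusters were seen. Alternatives were other depth and mitochondrial limits, resolutions, a seed, weights, thinning, wells, folds and count minimums. The own values of 1 member, which is part of the sums and counts, are not reported here.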

Additional observations from a re-analysis of the deposited data

Results flagged for a closer look

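Barcodes of 10 to 100 transcripts, the measure of free RNA, were part of no fold between types. They held the 38 genes at 0.108% of their transcripts in cells and 0.108% in nuclei, above the limit that a count of 0 allows. These shares lie next to the 0.104% and 0.110% of the kept barcodes.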

How the results depend on the processing

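Members called in at least 1 named type numbered 15 of 38 in cells and 21 of 31 in nuclei. A fold of 3 gave 8 in cells, and thinning to 1000 transcripts gave 13 in nuclei. For the other basement membrane and adhesion genes, 13 of 43 in cells became 27 at a fold of 1.5 and 7 at a fold of 3. In nuclei 15 of 41 became 29 and 9. The share of all genes called in at least 1 type, at any of these limits, is not given here. These counts therefore show how the calls move with the limits, not whether the members differ from all genes. Per kilobase of gene span, 6 of the 10 highest members of nuclei were shared with the order per exon. In place of thinning to 1000, thinning to 2000 and no thinning moved the share of choroid plexus-like cells with 3 laminin chains from 1.09% to 5.25% and 36.3%, and with an integrin pair from 9.11% to 23.2% and 60.9%. In choroid plexus-like nuclei the shares went from 2.02% to 5.73% and 41.2%, and from 10.6% to 24.5% and 75%. Members lower by 2-fold in nuclei than in cells numbered 7, and 11 within dividing-like and 11 within excitatory neuron-like barcodes, where 22.0% and 25.8% of the 20146 genes tested were. The cause of these shifts was not tested. Under 11 settings, 220 folds of 20 pairs of gene and type were recomputed. Of these, 138 moved by less than the spread over sub-libraries and 82 by more. With 0 reversed, 212 stayed at 2 or more and 8 were lower, the lowest at 1.39. The pairs were of members already at 2-fold or more in the same type of both libraries. These counts therefore do not test the calls. Leaving out barcodes above 50000 transcripts and comparing with named types only were chosen after seeing the data. No paired analysis was possible because each library was 1 sample.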
